A study of Mus musculus with 24 samples.

Results

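The prostaglandin and leukotriene synthesis genes were described across macrophage and dendritic cell cultures. The 8 genes were taken from the deposited table of 54532 genes by symbol: Pla2g4a, Ptgs1, Ptgs2, Ptges, Alox5, Alox5ap, Lta4h and Ltc4s. Each symbol matched 1 gene. Eicosanoids are short-lived lipid mediators made on demand rather than stored. The phospholipase encoded by Pla2g4a frees arachidonic acid from membranes, and the acid then enters a cyclooxygenase or a lipoxygenase branch. In the first, the cyclooxygenases of Ptgs1 and Ptgs2 make the prostaglandin precursor, which the inducible synthase of Ptges turns into prostaglandin E. In the second, Alox5, helped by the membrane protein of Alox5ap, makes an unstable leukotriene that Lta4h hydrolyses to the neutrophil attractant leukotriene B, or Ltc4s joins to glutathione as the first cysteinyl leukotriene. Ptgs1 is classically regarded as the constitutive and Ptgs2 as the inducible cyclooxygenase of myeloid cells.

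RNA was sequenced from 24 cultures in 8 groups of 3. Bone marrow of tamoxifen-treated mice was grown into macrophages (BMDMs, in medium conditioned by L929 fibroblasts) or dendritic cells (BMDCs, with GM-CSF and IL-4). All mice carried floxed Tmem173 alleles (Tmem173fl/fl), which encode STING, on a C57BL/6N background, and WT-labelled cultures came from mice with these alleles alone. CRE-labelled cultures came from Tmem173fl/flLzym-Creert2 mice, where tamoxifen-activated Cre is driven from the lysozyme gene Lyz2, which is active in myeloid cells but not equally in all of them. DX cultures received DMXAA, an agonist of mouse STING, labelled as 40 µM, and CT cultures are the controls, whose vehicle is not given in the sources used here. The study's methods give the dose in another unit (µg/mL), so the concentration is uncertain. The study gives mouse ages for tamoxifen induction and a DMXAA time for other BMDC experiments, but does not tie either to these cultures. Nothing says that same-group libraries came from separate mice, so p-values measure the spread between these cultures, which may be technical. RNA from whole cultures also cannot tell fewer cells of a type from less RNA per cell.

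Totals ranged from 15657347 to 18912887 counts per library. Tmem173 stayed readily detected in CRE-labelled cultures, at 19.7 to 36.8 FPKM in BMDC controls against 28.8 to 51.6 in WT, and 24.3 to 35.1 against 34.6 to 55.3 under DMXAA, with overlap in both. In BMDMs numbered 1 and 2 it overlapped in control (8.76 to 10.4 in CRE against 9.91 to 14.7 in WT) but not under DMXAA (9.12 to 10.1 against 22.8 to 31.8). Its FPKM thus separates the labels only in the DMXAA-treated BMDMs numbered 1 and 2. This is a level over the whole gene, and deletion of the floxed part was not measured. FPKM is counts scaled by gene length and library size. In the 8 BMDM libraries numbered 1 and 2, the median gene of a 10-gene macrophage list had 728 to 972 CPM, counts scaled to the library total. In the 4 numbered 3, 1 in every BMDM group, it had 0.328 to 0.806 CPM, a leukocyte list had at most 0.219 and a fibroblast list had 509 to 839. These 4 libraries go against the label BMDM and are shown apart. Both WT-labelled BMDM libraries numbered 2 also had raised fibroblast markers, at 686 (control) and 567 (DMXAA) summed CPM over 10 genes against 40.3 to 88.3 in the other 6. The BMDC libraries had dendritic markers at a median of 92.5 to 324 CPM, and the macrophage list at 48.2 to 145 CPM. Summed, the macrophage list had 2047 to 8958 CPM in BMDCs, lowest in the CRE libraries numbered 2 (2169 in control, 2047 under DMXAA). The BMDC cultures thus held transcripts of both lists. BMDC libraries of different labels and numbers also resembled each other in deviations from group means over 12126 genes. Under DMXAA these correlated at r = 0.57 (WT 1 with CRE 2), 0.49 (WT 2 with CRE 3) and 0.68 (WT 3 with CRE 1). They are the highest of all pairings, and deviations within a group balance out, so some pairing correlates positively by construction. In control the same pairs had r = 0.43, 0.45 and 0.32. No fit took account of these pairs.

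The genes lie on 6 chromosomes in GRCm38 coordinates. Pla2g4a (ENSMUSG00000056220, chromosome 1, 149829618 to 149961290, minus strand) and Ptgs2 (ENSMUSG00000032487, chromosome 1, 150100031 to 150108227, plus strand) are neighbours separated by 138741 bases. Ptgs1 (ENSMUSG00000047250, 36230426 to 36252272, plus strand) and Ptges (ENSMUSG00000050737, 30889471 to 30929863, minus strand) are both on chromosome 2. Alox5 (ENSMUSG00000025701) spans 116410077 to 116461178 on chromosome 6 and Alox5ap (ENSMUSG00000060063) spans 149264767 to 149288153 on chromosome 5. Lta4h (ENSMUSG00000015889) spans 93453411 to 93484875 on chromosome 10 and Ltc4s (ENSMUSG00000020377) spans 50236461 to 50238616 on chromosome 11. Counts on genes that overlap the members were small: the most was 29, for Gm43621 over Ptgs1 and for Gm19719 over Alox5ap.

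Promoters were available in RefSeq (GRCm38.p6) for 7 of the 8 genes. The 250 bases upstream of the start site are shown for the 3 prostaglandin genes whose levels moved most with DMXAA, Ptgs2 and Ptges upwards and Ptgs1 downwards. They are written 5′ to 3′ on the gene's strand, with motif matches in capitals. Ptgs2 is chr1:150099781-150100030, plus strand. Ptges is chr2:30903298-30903547, minus strand, and its RefSeq start lies inside the longer gene span of the table. Ptgs1 is chr2:36230176-36230425, plus strand.
Ptgs2: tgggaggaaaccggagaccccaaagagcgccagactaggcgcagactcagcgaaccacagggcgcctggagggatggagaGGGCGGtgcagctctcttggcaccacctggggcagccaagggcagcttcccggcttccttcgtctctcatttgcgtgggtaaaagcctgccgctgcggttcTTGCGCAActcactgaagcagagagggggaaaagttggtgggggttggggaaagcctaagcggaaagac
Ptges: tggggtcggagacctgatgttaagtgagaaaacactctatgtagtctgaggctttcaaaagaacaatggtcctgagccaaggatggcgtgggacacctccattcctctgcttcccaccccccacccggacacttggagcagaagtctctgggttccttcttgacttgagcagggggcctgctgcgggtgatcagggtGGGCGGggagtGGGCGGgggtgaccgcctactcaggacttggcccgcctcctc
Ptgs1: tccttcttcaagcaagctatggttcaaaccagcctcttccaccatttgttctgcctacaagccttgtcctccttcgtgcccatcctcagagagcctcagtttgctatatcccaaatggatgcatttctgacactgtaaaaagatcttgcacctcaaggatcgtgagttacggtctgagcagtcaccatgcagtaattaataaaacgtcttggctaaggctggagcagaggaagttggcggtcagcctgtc

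Searches ran on both strands, over these 250 bases and the first 50 after the start. The capitals in Ptgs2 mark a GC box (GGGCGG) at -170 to -165 and a palindrome of the C/EBP family (TTGCGCAA) at -69 to -62, counted from the start site. Of 32851 promoter windows of 300 bases, 0.183% held the palindrome and 35.7% a GC box. Downstream of its start, Ptgs2 also held the core of the cyclic AMP response element (CGTCA) at 14 to 18 and an E-box (CACGTG) at 17 to 22, which overlap; 20.8% and 7.15% of windows held these. The 2 capital blocks in Ptges are GC boxes at -53 to -48 and -42 to -37, and Alox5 had 1 at -35 to -30. No searched motif was in the windows of Ptgs1, Lta4h, Ltc4s or Pla2g4a. The other motifs searched were the kappaB site (in 4.51% of windows), the full cyclic AMP response element (TGACGTCA, 1.79%), the interferon response core (a pair of GAAA runs 2 bases apart, 3.44%), the GAS element (TTCNNNGAA, 8.30%) and the TATA box (TATAAA, 13.6%). These are matches of letters, not measured sites.

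**Figure D1:**
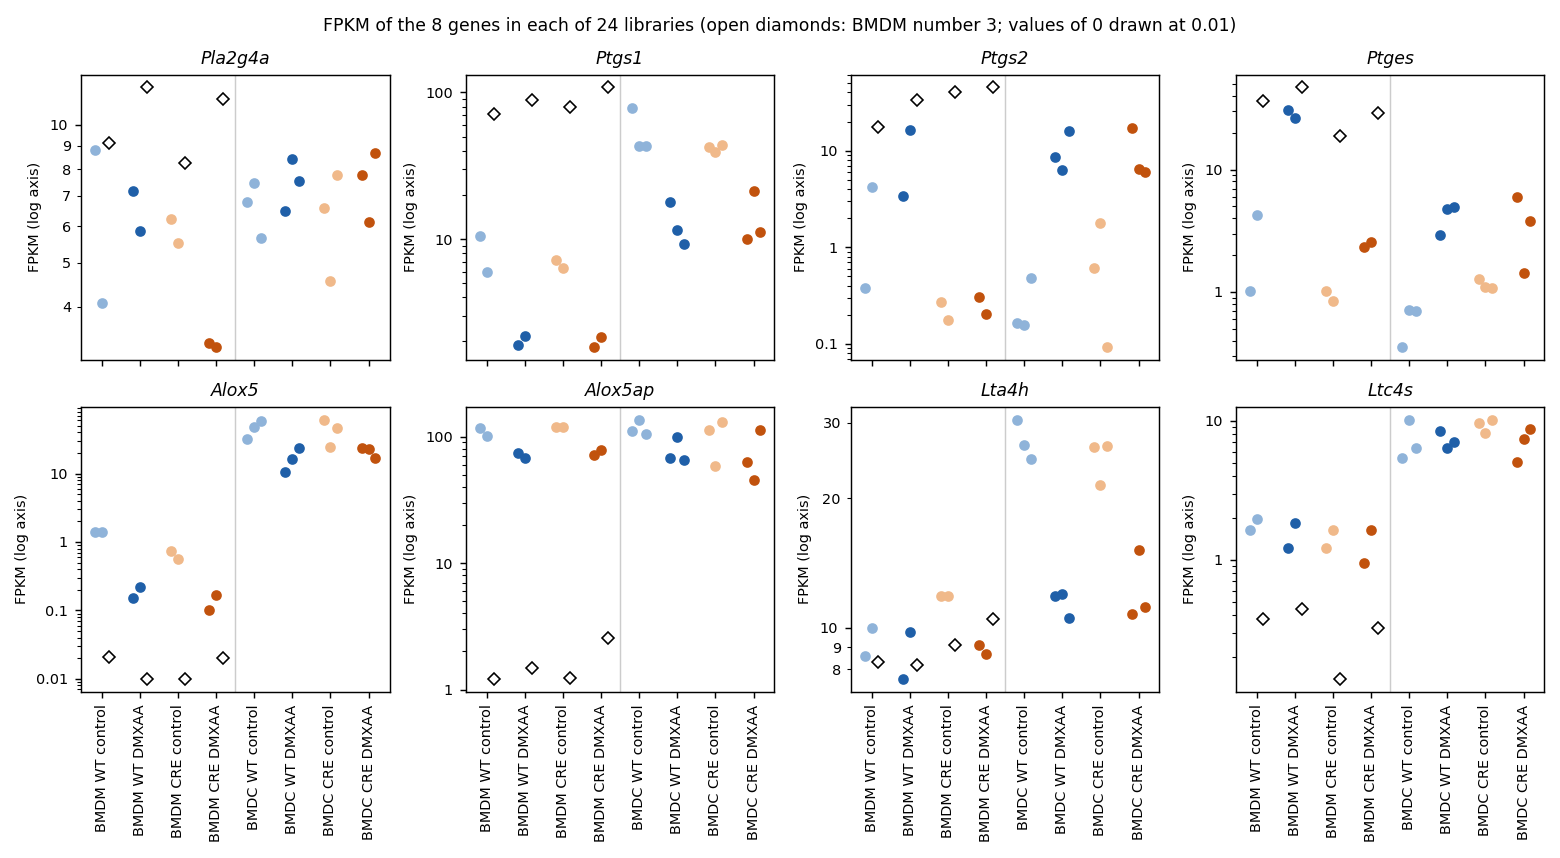
FPKM (log axis) of each of the 8 genes in the 24 libraries, by group. Each point is 1 library, open diamonds are the BMDM libraries numbered 3 and values of 0 are drawn at 0.01. Alox5 lies between 10.4 and 61.3 in BMDCs and at or below 1.42 in all BMDM libraries.

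In WT-labelled BMDCs, DMXAA was accompanied by more Ptgs2 and Ptges RNA and less Ptgs1, Alox5 and Lta4h RNA. The inducible cyclooxygenase gene rose 37.6-fold and the constitutive one was 4.32-fold lower. Pla2g4a and Ltc4s did not pass the test in either direction. Thus 5 of 8 genes were called (2 higher, 3 lower) by the quasi-likelihood test of edgeR at a Benjamini-Hochberg adjusted p under 0.05, against 32.2% of the 12126 genes tested. Their median log2 fold change was -0.33, against 0.01 over all genes.

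Ptgs2 had 0.165, 0.156 and 0.478 FPKM in the WT control libraries 1 to 3 and 8.51, 6.35 and 15.9 under DMXAA. Every treated library lay above every control, by 5.23 ± 0.92 on the log2 scale (SE, n = 3, adjusted p 0.00127 in edgeR). Ptges, the synthase downstream of it, had 0.357, 0.712 and 0.699 FPKM in control and 2.91, 4.76 and 4.97 under DMXAA. It changed by 2.81 ± 0.48 on the log2 scale (SE, n = 3, adjusted p 0.00111 in edgeR), with no overlap.

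Ptgs1 moved the other way. It had 78.0, 42.9 and 43.0 FPKM in control, the highest of the prostaglandin genes, and 17.98, 11.5 and 9.20 under DMXAA. The groups did not overlap, and the change was -2.11 ± 0.34 on the log2 scale (SE, n = 3, adjusted p 0.000767 in edgeR). In control, Ptgs2 held 0.211% to 1.099% of the summed FPKM of both cyclooxygenase genes, and under DMXAA 32.1% to 63.4%. The sum itself was 43.0 to 78.1 FPKM in control and 17.8 to 26.5 under DMXAA, so the total of both transcripts was lower in every treated library.

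Of the leukotriene genes, Alox5 had 31.7, 48.1 and 59.1 FPKM in control and 10.4, 16.5 and 23.8 under DMXAA. All treated libraries were below all controls (log2 fold change -1.47 ± 0.38, SE, n = 3, adjusted p 0.012 in edgeR). Lta4h, the hydrolase for leukotriene B, had 30.5, 26.6 and 24.7 FPKM in control and 11.9, 11.99 and 10.5 under DMXAA. The log2 fold change was -1.27 ± 0.16, the smallest standard error of the 8 genes (SE, n = 3, adjusted p 0.000161 in edgeR). Alox5ap, the most abundant member, had 111, 136 and 106 FPKM in control and 68.4, 99.7 and 64.9 under DMXAA. These groups did not overlap either, but the log2 difference of -0.62 (adjusted p 0.219 in edgeR) did not pass.

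Ltc4s had 5.42, 10.2 and 6.38 FPKM in control and 8.40, 6.34 and 6.99 under DMXAA, and the groups overlapped. The interval of its log2 difference ran from -0.66 to 0.56. Pla2g4a had 6.79, 7.47 and 5.66 FPKM in control and 6.47, 8.43 and 7.53 under DMXAA, also overlapping, with an interval of -0.32 to 0.62. At these intervals a 2-fold change of either gene lies outside the range.

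The same genes were followed in CRE-labelled BMDCs, where 4 of 8 were called (2 higher, 2 lower) against 25.4% of all genes. Ptgs2 had 0.609, 1.78 and 0.093 FPKM in control and 17.0, 6.43 and 5.9998 under DMXAA. The change was 3.54 ± 0.82 on the log2 scale (SE, n = 3, adjusted p 0.00861 in edgeR), without overlap. Library pair 2 moved least: its Ptgs2 rose 3.61-fold from control to DMXAA, against 27.9-fold and 64.2-fold in pairs 1 and 3.

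Ptges had 1.27, 1.09 and 1.08 FPKM in control and 5.98, 1.42 and 3.82 under DMXAA. Its groups did not overlap, although treated library 2 lay close to the controls (log2 fold change 1.68 ± 0.46, SE, n = 3, adjusted p 0.0189 in edgeR). That call did not hold without CRE control 1 (adjusted p 0.0522), CRE control 3 (0.0653) or CRE DMXAA 1 (0.0883), all in edgeR. Ptgs1 had 42.2, 39.0 and 43.9 FPKM in control and 9.94, 21.2 and 11.1 under DMXAA. It was lower in 3 of 3 treated libraries, with -1.59 ± 0.34 on the log2 scale (SE, n = 3, adjusted p 0.00497 in edgeR). The Ptgs2 share of both cyclooxygenase genes went from 0.212% to 4.36% in control to 23.3% to 63.1% under DMXAA.

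Lta4h had 26.3, 21.5 and 26.5 FPKM in CRE control and 10.8, 15.1 and 11.2 under DMXAA, again without overlap (log2 fold change -1.03 ± 0.16, SE, n = 3, adjusted p 0.000828 in edgeR). Alox5 had 61.3, 24.8 and 45.9 FPKM in control and 23.9, 22.8 and 17.0 under DMXAA. Pair 2 hardly differed, at 0.919 of its control, and the log2 difference of -1.08 ± 0.38 (SE, n = 3) narrowly missed the threshold (adjusted p 0.0573 in edgeR). Without both CRE libraries numbered 2 it was -1.42 (adjusted p 0.0207 in edgeR). That exclusion was chosen after seeing the data and drops the pair that hardly differed. Alox5ap had 113, 58.5 and 130 FPKM in control and 63.5, 45.8 and 114 under DMXAA, Ltc4s 9.65, 8.20 and 10.2 against 5.02, 7.36 and 8.71, and Pla2g4a 6.57, 4.55 and 7.78 against 7.76, 6.14 and 8.66. These 3 genes overlapped between groups and were not called.

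Control and DMXAA libraries of the same label and number deviated together in BMDCs (r = 0.395 to 0.677), and pairing them by a replicate block within genotype changed some calls. With the block, Alox5ap was called in both labels, at -0.64 (adjusted p 0.00347 in edgeR) in WT and -0.48 (0.0176) in CRE, and so was CRE Alox5 at -1.003 (0.00555). The number of genes called went from 3904 to 5911 in WT and from 3084 to 5181 in CRE. Summed markers of other leukocytes were lower in each treated library than in the control of its label and number. The summed CPM of a 10-gene mast cell and basophil list was 196 to 498 in WT control and 152 to 292 under DMXAA, mostly Cpa3, with Tpsb2, Cma1 and Mcpt8 at or near 0. A 10-gene neutrophil list had 49.4 to 72.3 CPM in WT control and 11.97 to 19.0 under DMXAA. In CRE these were 78.2 to 533 and 54.4 to 280 for the first list, and 49.4 to 438 and 14.6 to 193 for the second, with the highest neutrophil value in both treatments in library 2. A 5-gene eosinophil list, mostly Siglecf with Epx at or near 0, had 47.8 to 56.0 CPM in WT control and 15.9 to 18.1 under DMXAA, and in CRE 53.1 to 80.7 and 17.8 to 55.1. The ranges of the mast cell and basophil list overlapped between treatments in both labels, and in CRE those of every list did. CPM is scaled to the count total. The effective library size behind the FPKM was 1.03 to 1.16 times that total in WT controls and 0.797 to 0.893 times it under DMXAA. CPM takes no account of this shift, which lowers treated values against FPKM. The part of these lists in the lower Alox5 and Lta4h levels was not tested.

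**Figure D2:**
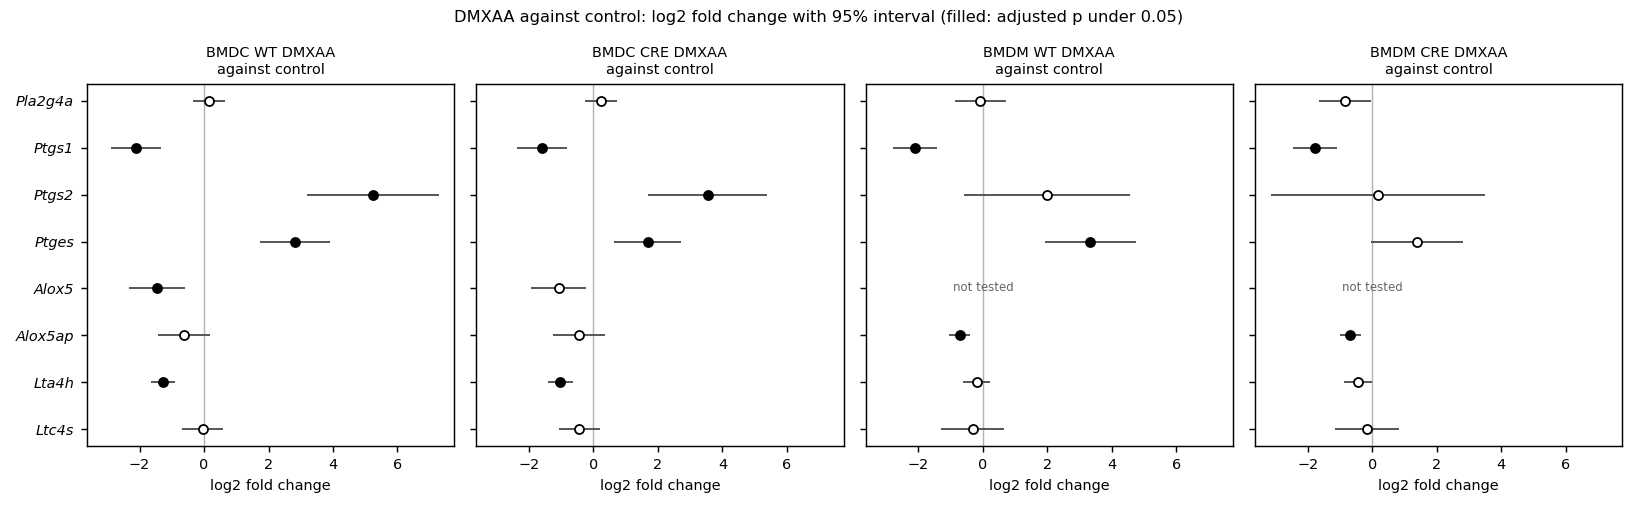
Log2 fold change of each gene under DMXAA against control in 4 comparisons, with 95% intervals from edgeR. Filled points have an adjusted p under 0.05. Ptgs1 lies left of 0 and filled in all 4 panels, from -2.11 to -1.59.

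No difference between CRE-labelled and WT-labelled BMDCs was called in these genes. Under DMXAA 0 of 8 were called (0% of 12126 genes by edgeR, 108 with an unadjusted p under 0.05, and 0 called by DESeq2). The Ptgs2 difference was -0.06, with an interval from -1.66 to 1.55, and that of Ptges was -0.17 (-1.13 to 0.80). The narrowest interval was that of Lta4h, from -0.23 to 0.47. In control 0 of 8 were called (0% of genes, 99 unadjusted, 0 by DESeq2). Ptges was higher in 3 of 3 CRE controls than in every WT control, with a log2 difference of 0.96 (unadjusted p 0.0639 and adjusted p 1 in edgeR). The difference between the labels in the DMXAA response was not called for any member (0% of genes, 60 unadjusted, and 1 gene by DESeq2). For Ptgs2 that difference was -1.69, with a wide interval from -4.17 to 0.79. Each unadjusted count is below the share of 0.05 of genes expected with no difference at all. These tests could thus miss differences and do not show that the labels are alike. The fit took no account of the libraries that resembled each other across labels, and their part was not tested.

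In WT-labelled BMDMs numbered 1 and 2, DMXAA was accompanied by a 10.02-fold rise of Ptges and by lower Ptgs1 and Alox5ap. The filter on low values (at least 1 FPKM in at least 3 libraries of the fit) left 7 of the 8 genes, since Alox5 reached 1 FPKM only in the 2 WT controls. Of these 7, 3 were called (1 higher, 2 lower), against 40.4% of 10938 genes, so the share is near the background. The 2 libraries of each group limit every BMDM statement.

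Ptges had 1.02 and 4.23 FPKM in WT controls 1 and 2 and 30.6 and 26.4 under DMXAA. The groups did not overlap (log2 fold change 3.32 ± 0.58, SE, n = 2, adjusted p 0.00443 in edgeR), and treated levels exceeded those of every BMDC library. Ptgs2 had 0.374 and 4.22 FPKM in control and 3.36 and 16.3 under DMXAA. Control 2 was above treated library 1, and the log2 difference of 1.99 ± 1.07 (SE, n = 2, adjusted p 0.183 in edgeR) did not pass. Within a number, the treated library had 8.98 and 3.87 times the FPKM of its control. With the number as a replicate block within genotype the difference was called, at 2.32 ± 0.29 (adjusted p 0.00158 in edgeR), though 2 numbers are too few to show a pairing. It was also called with no low-value filter, at 2.02 ± 0.38 (SE, n = 2, adjusted p 7.53e-06 in edgeR). The counts of Ptgs2 were the same there and the groups still overlapped, so that smaller SE depends on the other genes entered. Ptgs2 was called without WT control 2, at 4.66 (adjusted p 0.0178 in edgeR). Both libraries numbered 2, with the higher Ptgs2 in their treatment, are those with 567 and 686 summed CPM of fibroblast markers. Of that list Lum was at or near 0 and Col1a2 was highest. The part of these markers in the Ptgs2 level was not tested. In the libraries numbered 1, where the sums were 88.3 and 40.3 CPM, Ptgs2 and Ptges were both higher under DMXAA.

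**Figure D3:**
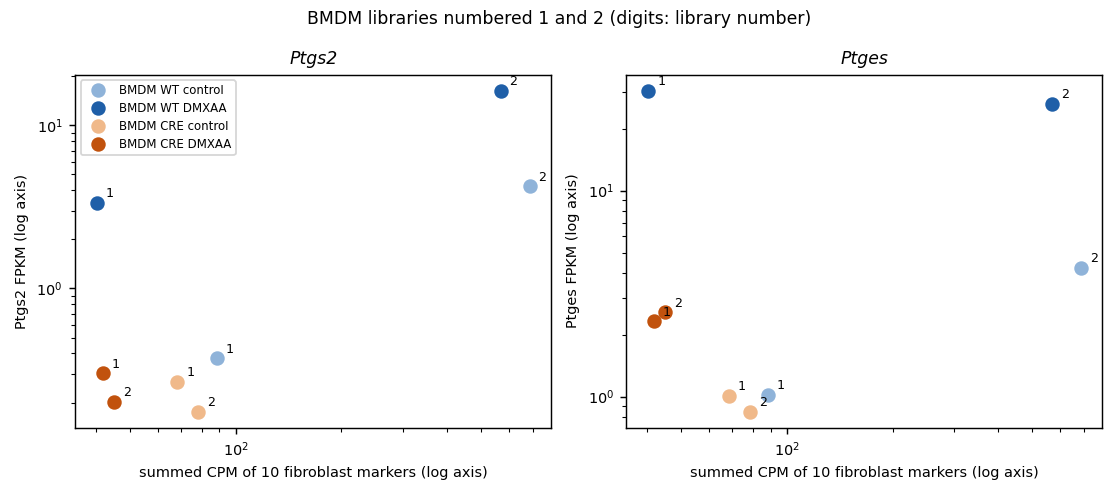
FPKM of Ptgs2 (left) and Ptges (right) against the summed CPM of 10 fibroblast markers in the 8 BMDM libraries numbered 1 and 2, both on log axes, with the library number beside each point. The 2 WT libraries with 567 and 686 CPM include the highest Ptgs2 value, 16.3, while Ptges is 30.6 and 26.4 in treated WT libraries on either side.

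Ptgs1 had 10.5 and 5.98 FPKM in WT control and 1.89 and 2.17 under DMXAA. Treated and control libraries did not overlap (log2 fold change -2.11 ± 0.28, SE, n = 2, adjusted p 0.00141 in edgeR). Ptgs2 held 3.45% and 41.4% of the FPKM of both cyclooxygenase genes in control and 64.0% and 88.3% under DMXAA. Alox5ap had 118 and 101 FPKM in control and 74.7 and 67.3 under DMXAA, likewise apart (log2 fold change -0.72 ± 0.12, SE, n = 2, adjusted p 0.00405 in edgeR).

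Lta4h had 8.59 and 9.97 FPKM in control and 7.61 and 9.77 under DMXAA, and Ltc4s 1.64 and 1.96 against 1.22 and 1.84. Pla2g4a had 8.79 and 4.07 FPKM in control and 7.17 and 5.86 under DMXAA. None of these 3 was called and their groups overlapped. Alox5 had 1.40 and 1.42 FPKM (117 and 123 counts) in control and 0.151 and 0.219 (7 and 13 counts) under DMXAA. It was tested only without the filter, where its log2 fold change was -2.99 ± 0.54 (SE, n = 2, adjusted p 2.62e-06 in edgeR). That fit gave Ptgs2 a smaller SE from the same counts, so its p-values depend on the genes entered.

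In CRE-labelled BMDMs numbered 1 and 2, Ptgs1 and Alox5ap were called lower and no member was called higher. These were 2 of 7 genes tested, against 11.3% of all genes. Ptgs1 had 7.15 and 6.32 FPKM in control and 1.84 and 2.15 under DMXAA (log2 fold change -1.77 ± 0.27, SE, n = 2, adjusted p 0.00946 in edgeR). Alox5ap had 119 FPKM in both controls and 71.9 and 78.9 under DMXAA (-0.68 ± 0.12, SE, n = 2, adjusted p 0.017 in edgeR). Neither pair of groups overlapped, but both calls were lost on leaving out any 1 of the 4 CRE libraries, with adjusted p of 0.0625 to 0.109 for Ptgs1 and 0.109 to 0.172 for Alox5ap in edgeR.

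Ptgs2 stayed low in these cultures, at 0.269 and 0.176 FPKM in control and 0.302 and 0.203 under DMXAA. Ptges had 1.0099 and 0.846 FPKM in control and 2.33 and 2.57 under DMXAA, higher in both treated libraries but not called (1.38 ± 0.59 on the log2 scale, SE, n = 2, adjusted p 0.184 in edgeR). It was called with no low-value filter, at 1.40 ± 0.27 (SE, n = 2, adjusted p 3.53e-05 in edgeR), a smaller SE from the same counts. Pla2g4a had 6.21 and 5.50 against 3.34 and 3.28 FPKM, and Lta4h 11.9 and 11.9 against 9.12 and 8.67. Both were apart without a call (adjusted p 0.143 and 0.139 in edgeR). Alox5 had 0.735 and 0.565 against 0.103 and 0.166 FPKM (54 and 46 against 7 and 11 counts), and Ltc4s 1.21 and 1.64 against 0.949 and 1.65.

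Under DMXAA, CRE-labelled BMDMs had less Ptgs2 and Ptges RNA than WT-labelled ones. With the values given above, Ptgs2 differed by -5.26 ± 1.31 on the log2 scale (SE, n = 2, adjusted p 0.033 in edgeR) and Ptges by -3.51 ± 0.59 (SE, n = 2, adjusted p 0.00881 in edgeR), both without overlap. These were 2 of 7 genes, against 20% of all genes. Ptgs1 did not differ beyond its spread, at 0.00 with an interval of -0.66 to 0.66, nor did Alox5ap at 0.12 (-0.17 to 0.41). Both calls were lost without CRE DMXAA 1 (adjusted p 0.181 for Ptgs2 and 0.0937 for Ptges in edgeR) or CRE DMXAA 2 (0.197 and 0.085), and that of Ptgs2 also without WT DMXAA 2 (0.0934). WT DMXAA 2 is 1 of the libraries with raised fibroblast markers, and without it the Ptgs2 difference was -3.68. Pla2g4a was apart without a call in this fit, at 3.34 and 3.28 FPKM in CRE against 7.17 and 5.86 in WT. DESeq2 called it (-0.999, adjusted p 0.0208), and the edgeR fit with all libraries did not.

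The labels differed in spread: the biological coefficient of variation was 30.0% in the WT and 5.17% in the CRE BMDM libraries of this fit, and 21.3% over all 8. With the spread of the WT libraries alone, 0 members were called in any BMDM comparison, and the adjusted p under DMXAA was 0.727 for Ptgs2 and 0.466 for Ptges in edgeR. In control 0 of 7 genes were called between the labels (0.064% of genes by edgeR, 773 with an unadjusted p under 0.05, and 110 genes called by DESeq2). Ptgs2 and Ptges were nevertheless lower in both CRE controls than in both WT controls, by log2 differences of -3.43 and -1.56 (adjusted p 0.692 in edgeR for each). These values rest on WT control 2, with raised fibroblast markers: without it the differences were -0.78 and -0.16, and Ptges was 1.02 FPKM in WT control 1 against 1.0099 in CRE control 1. The difference in DMXAA response between the labels was called for 0 of 7 (4.22% of genes, 2308 unadjusted, and 1171 by DESeq2). For Ptges it was -1.95, with an interval from -3.85 to -0.04 and an adjusted p of 0.227 in edgeR.

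**Figure D4:**
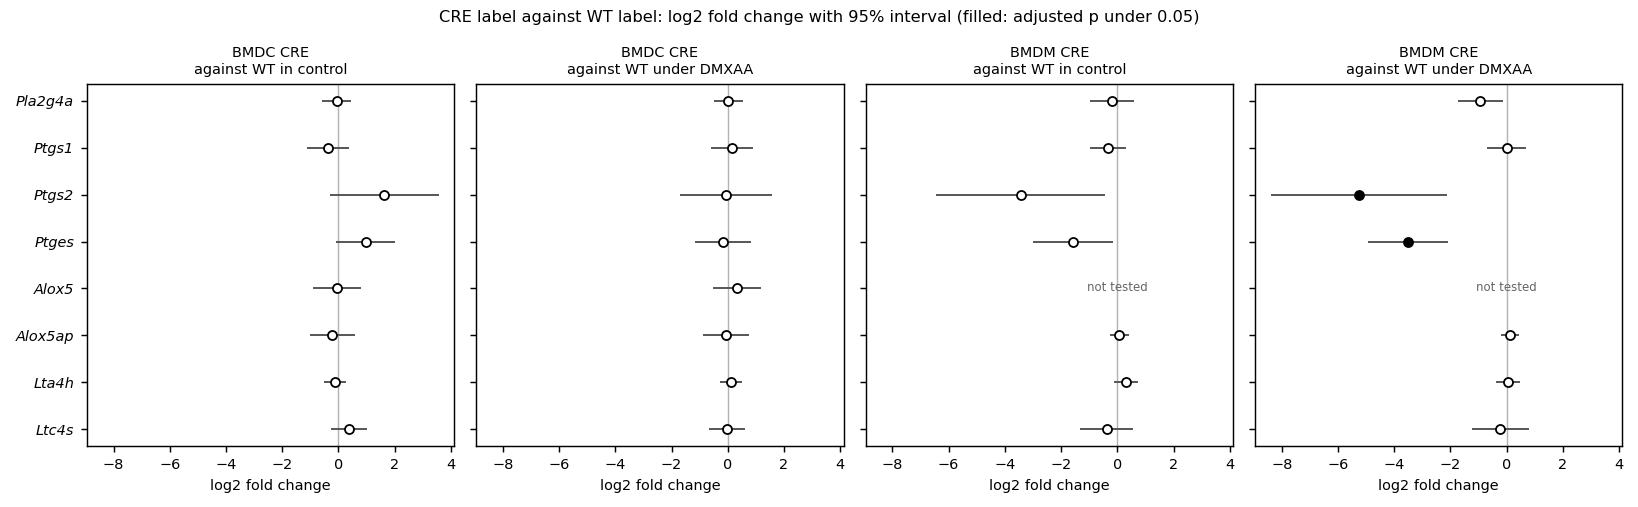
Log2 fold change of CRE against WT in BMDCs and BMDMs, in control and under DMXAA, with 95% intervals from edgeR. Filled points have an adjusted p under 0.05. Only Ptgs2 (-5.26) and Ptges (-3.51) in BMDMs under DMXAA are filled.

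In control WT cultures, the leukotriene branch stood higher in BMDCs than in BMDMs, except for Alox5ap. In all, 6 of 8 genes were called (4 higher and 2 lower in BMDCs), against 28.6% of genes. The cell types were grown in different media, so cell type and culture cannot be told apart. Other leukocyte markers differed too. The mast cell and basophil list had 196 to 498 summed CPM in BMDCs against 1.92 to 3.33 in BMDMs. The eosinophil list had 47.8 to 56.0 against 6.15 to 11.9, and the neutrophil list 49.4 to 72.3 against 19.9 to 20.3. The sum of a 5-gene platelet and megakaryocyte list went the other way, at 41.9 to 70.0 against 94.7 to 174. Its median gene did not, at 6.68, 3.75 and 12.4 CPM in BMDC controls 1 to 3 against 0.824 and 0.582 in BMDM controls 1 and 2. The BMDM sum thus rests on few genes of that list. The part of these lists in the member differences was not tested. Alox5 was 46.3 ± 13.8 FPKM (SD, n = 3) in BMDCs and 1.41 ± 0.0175 (SD, n = 2) in BMDMs, a log2 difference of 5.03 ± 0.47 (SE, adjusted p 1.38e-06 in edgeR). Lta4h was 27.3 ± 2.96 (SD, n = 3) against 9.28 ± 0.977 FPKM (SD, n = 2), and Ltc4s 7.33 ± 2.52 (SD, n = 3) against 1.80 ± 0.227 (SD, n = 2). Their log2 differences were 1.55 ± 0.18 and 2.01 ± 0.35 (adjusted p 1.04e-05 and 0.000502 in edgeR). Alox5ap, needed for the same step as Alox5, had 118 ± 16.5 and 109 ± 12.2 FPKM and a log2 difference of 0.10 (-0.62 to 0.83).

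Ptgs1 was also higher in BMDCs, at 54.6 ± 20.2 FPKM (SD, n = 3) against 8.22 ± 3.17 (SD, n = 2), by 2.73 ± 0.38 on the log2 scale (adjusted p 6.68e-05 in edgeR). Ptges and Ptgs2 were lower, by log2 differences of -2.17 ± 0.55 and -3.12 ± 1.04 (adjusted p 0.00725 and 0.0348 in edgeR). These 2 calls rested on WT BMDM control 2: without it they were -0.77 (adjusted p 0.369) and -0.47 (0.838) in edgeR, and the Ptgs2 groups overlapped. The Ptgs2 call was also lost without BMDC control 1 (adjusted p 0.0951) or 2 (0.104). Pla2g4a did not differ, at 0.05 with an interval from -0.54 to 0.63.

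The response of WT cultures to DMXAA differed between cell types for 1 of 8 genes, against 2.99% of all. Lta4h had log2 fold changes of -1.27 in BMDCs and -0.19 in BMDMs in the separate fits, a difference of -1.12 ± 0.24 (SE, adjusted p 0.0188 in edgeR). This call was lost without WT BMDC control 1, control 2 or DMXAA 1, or without WT BMDM control 1 or DMXAA 2 (adjusted p 0.0552 to 0.12 in edgeR). It was also lost with no low-value filter (adjusted p 0.0745 in edgeR) and with all libraries (0.354). For Ptgs1 the responses differed by -0.04, with an interval of -1.12 to 1.03. For Ptgs2 the difference was 3.20 (0.16 to 6.24; adjusted p 0.323 in edgeR).

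**Figure D5:**
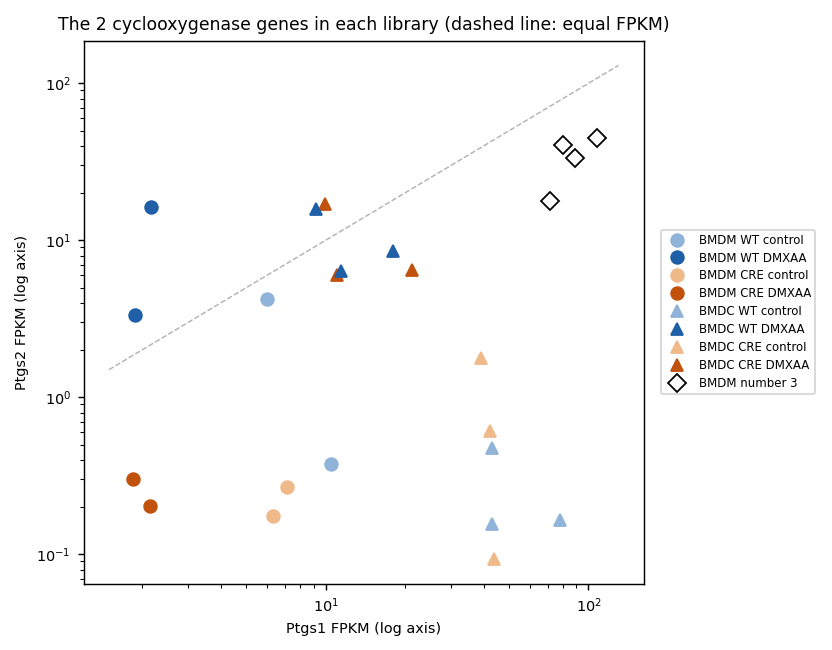
Ptgs2 against Ptgs1 FPKM in each of the 24 libraries, both on log axes, with equal FPKM as a dashed line. Circles are BMDMs, triangles BMDCs and open diamonds the BMDM libraries numbered 3. Above the line are both WT BMDM libraries under DMXAA and 1 BMDC library of each label under DMXAA.

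The 4 BMDM libraries numbered 3 had another pattern of the same genes. Ptgs1 had 71.6 and 79.8 FPKM in their WT and CRE controls and 88.7 and 108 under DMXAA. Ptgs2 had 17.7 and 40.3 in control and 33.3 and 45.0 under DMXAA, and Ptges 36.3 and 18.7 against 47.0 and 29.1. These levels were above those of every other BMDM library, except for Ptges in CRE control 3, which lay below the treated WT libraries 1 and 2, and in CRE DMXAA 3, which lay below treated WT library 1. Pla2g4a had 9.12 and 8.24 FPKM in control and 12.1 and 11.3 under DMXAA.

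The leukotriene genes were nearly silent there. Alox5 had 0 to 2 counts, where 3 counts is the limit that a count of 0 allows, Ltc4s had 0.140 to 0.447 FPKM, and Alox5ap 1.22 to 2.56 against at least 67.3 in the other 8 BMDM libraries. Lta4h was the exception, at 8.18 to 10.5 FPKM. The ratio of treated to control library was 1.24 and 1.35 for Ptgs1 in WT and CRE, 1.88 and 1.12 for Ptgs2 and 1.30 and 1.55 for Ptges, with 1 library a side and no test. With these libraries in the fit, no member and no gene was called in any BMDM comparison (1158 genes with an unadjusted p under 0.05 for WT DMXAA).

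Other genes of the pathway were followed through lists by role, 65 of 66 matched to the table. In BMDCs 38 were tested, and 11 were called in WT (4 higher, 7 lower; median log2 fold change -0.26) and 10 in CRE (4 higher, 6 lower; -0.25), near the 32.2% and 25.4% of all genes. Faah, a fatty acid amide hydrolase, rose in WT from 0.254 ± 0.109 to 14.1 ± 3.17 FPKM (SD, n = 3; log2 fold change 5.76 ± 0.58) and in CRE by 5.17 ± 0.57. Acsl1, an acyl-CoA synthetase, rose in WT from 3.45 ± 0.196 to 73.3 ± 26.5 FPKM (SD, n = 3). Among the lower genes, Ltb4r1, the high-affinity receptor for leukotriene B, went from 107 ± 13.8 to 25.9 ± 5.67 FPKM in WT (SD, n = 3; log2 fold change -2.08 ± 0.38). Tbxas1, thromboxane synthase, went from 26.6 ± 1.32 to 10.1 ± 3.34 (-1.41 ± 0.36), and the phospholipase gene Pla2g15 was lower in both labels (-0.73 ± 0.14 and -0.72 ± 0.14). Akr1b3, an aldo-keto reductase listed with the prostanoid synthases, was higher in both (0.66 ± 0.14 in each).

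By role, in WT BMDCs 2 of 7 tested prostanoid synthases were called (1 higher, 1 lower), 1 of 3 breakdown and transport genes (lower), 0 of 3 prostanoid receptors and 1 of 6 genes of leukotriene conjugation, export and breakdown (lower). The breakdown gene was Ptgr2, a prostaglandin reductase (-0.51 ± 0.15), and that of the last list was Cotl1, whose product binds 5-lipoxygenase (-0.84 ± 0.21). Of 3 leukotriene receptors Cysltr2 was higher (1.94 ± 0.51) and Ltb4r1 lower, and of the other lipoxygenases 0 of 1 was called. Of 15 genes of arachidonate release and re-esterification 2 were higher and 3 lower. Over all genes 32.2% were called in this comparison, and these lists are too small to set a role apart from that share.

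In WT BMDMs 16 of 37 other genes were called (5 higher, 11 lower; 40.4% of all genes), and in CRE 6 of 37 (1 higher, 5 lower; 11.3%). Acsl1 rose from 5.93 ± 0.380 to 98.9 ± 18.1 FPKM in WT (SD, n = 2; log2 fold change 3.96 ± 0.16) and by 1.39 ± 0.14 in CRE. Acsl3, a synthetase of the same family, was lower in both (-2.42 ± 0.25 and -1.22 ± 0.23), as were the leukotriene C exporter gene Abcc1 (-1.39 ± 0.14 and -0.68 ± 0.14), Cotl1 (-1.21 ± 0.14 and -0.56 ± 0.14) and Prxl2b (-1.15 ± 0.22 and -0.96 ± 0.22). Called in WT and not in CRE were the prostaglandin exporter gene Abcc4 (-0.999 ± 0.21), the prostaglandin E receptor gene Ptger4 (-2.37 ± 0.63), the cytosolic synthase gene Ptges3 (-0.59 ± 0.17), Lpcat1 (-1.60 ± 0.33), Lpcat2 (0.72 ± 0.16) and Akr1b3 (0.37 ± 0.11). The WT controls of Ptger4 lay far apart, at 5.78 ± 5.22 FPKM against 1.19 ± 0.363 under DMXAA (SD, n = 2). Mgst3 was called in CRE (-0.54 ± 0.13). In the test of whether the response differed between labels, 1 of 37 was called, Acsl1 (-2.57 ± 0.20, adjusted p 0.00646 in edgeR).

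Between labels under DMXAA, 9 of 37 were called in BMDMs (6 higher and 3 lower in CRE; 20% of all genes). Acsl1 was lower in CRE (-2.75 ± 0.15) as was Lpcat2 (-0.74 ± 0.16), while Lpcat1 (1.22 ± 0.33), Cotl1 (0.92 ± 0.14) and Anxa1 (0.62 ± 0.14), a gene of an anti-inflammatory phospholipid-binding protein, were higher. In BMDCs 0 of 38 were called between labels, in control or under DMXAA. Between WT controls of the cell types, 19 of 41 were called (12 higher and 7 lower in BMDCs; 28.6% of all genes). Ltb4r1 had 107 ± 13.8 FPKM in BMDCs and 0.276 ± 0.0426 in BMDMs, the prostacyclin receptor gene Ptgir 73.5 ± 16.2 and 5.59 ± 2.31, and the monoacylglycerol lipase gene Mgll 58.8 ± 4.03 and 1.37 ± 1.08. Alox15 had 17.3 ± 7.15 FPKM in BMDCs and was nearly absent from BMDMs. Hpgds, the haematopoietic prostaglandin D synthase, stood the other way at 0.259 ± 0.119 FPKM in BMDCs and 27.3 ± 5.79 in BMDMs (SD, n = 3 and 2), and so did Prxl2b at 1.88 ± 0.489 and 13.6 ± 2.41.

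The genes whose log2(FPKM + 1) was most like each member other than Pla2g4a over the 20 libraries outside number 3 were found by Pearson r, as a description. These libraries share treatments and cell types, so they fall into clusters and the values carry no test. Ptgs2 was most like Bmp2 (r = 0.95), and Ptges most like Bid (0.96), Lmo4 (0.95) and Sod2 (0.95). Ptgs1 was most like Pdha1 (0.97), Alox5 like Nfe2 (0.98), Alox5ap like Fer1l5 (0.92) and Lta4h like Gpr160 (0.98). Ltc4s was most like Cyb561 (0.97).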

How the data were processed

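RNA-sequencing was performed on polyA RNA of 12 BMDM and 12 BMDC libraries. The labels list CASAVA 1.8, fastp, HISAT2 2.0.5, featureCounts 1.5.0-p3 and DESeq2 1.20.0 with GRCm38 (mm10), without their roles, and the kit named does not mark strand. The authors deposited raw counts per gene and FPKM values, which they scaled by gene length and an effective library size of 0.687 to 1.33 times the count total. Further deposited columns (60), with log2 fold changes and p-values, are the authors' own comparisons and were not used. Every group came from the labels, and 0 columns of samples were left unmatched.

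Counts were tested in edgeR 4.0.16 (R 4.3.3) with TMM scaling and the quasi-likelihood test, two-sided, with Benjamini-Hochberg adjustment over all genes tested and calls at an adjusted p under 0.05. The low-value filter kept genes that reached 1 FPKM in 3 or more libraries of a fit. A fit held the 12 BMDC libraries, the 8 BMDM libraries numbered 1 and 2, or those 20 for cell types. Each SE is the log2 fold change over the root of its F, and intervals are 95%. Fits were tested on simulated data. DESeq2 1.42.0, another scaling, no filter, replicate blocks, all libraries and leaving out each library were alternatives. The replicate block within genotype pairs BMDC numbers by the correlations of their deviations, as no label explains the numbers. Counting error is covered by the model, though without molecular identifiers reads may be copies of 1 molecule. Of the other pathway genes, those called with a mean of at least 5 FPKM in the higher group and no overlap are named, at most 4 a list and comparison, and Ptgr2 and Cysltr2 after their values were seen. Members and lists were chosen with earlier results of these data known. The gene most like Pla2g4a is not reported here. Figures were drawn with matplotlib 3.10.9.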

Additional observations from a re-analysis of the deposited data

Results flagged for a closer look

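The DMXAA response of Lta4h differed between WT-labelled BMDCs and BMDMs, by -1.12 on the log2 scale in a test of the difference itself. That call was lost without some single WT libraries, with no low-value filter and with all libraries. In the BMDM libraries numbered 3, which enter no main comparison, both libraries under DMXAA were above both controls for 3 of the members. The lower treated value was 11.3 FPKM for Pla2g4a, 88.7 for Ptgs1 and 1.48 for Alox5ap, while Ptgs1 and Alox5ap were lower under DMXAA in the other BMDM libraries. Alox5ap had only 37 to 89 counts in the libraries numbered 3. With so few libraries this order can arise without any effect. The share of all genes with the same order was not counted, so these members cannot be set apart from it. These differences in the libraries numbered 3 were not tested.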

How the results depend on the processing

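Of 23 member fold changes called in edgeR, Ptgs1, Ptgs2 and Lta4h under DMXAA in both BMDC labels, Alox5 and Ptges in WT BMDCs, and Alox5 and Lta4h between cell types kept their direction and call under every alternative run. Over all member fold changes and alternatives, 1013 kept their side of the threshold, 43 lost the call and 42 gained one. Another 3 reversed with a call in at least 1 setting. The 1013 include 807 values called under neither setting, and 87 of these changed sign. Reversed were Ptgs1 in BMDM WT and CRE with all libraries (0.087 and 0.28) and Pla2g4a in BMDM WT without WT control 1 (0.57). Pla2g4a there was called in the direction of its full fit without WT control 2 (-0.50). The cause of these changes was not tested, and with 2 libraries a group, BMDM counts depend on each.

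The replicate block within genotype gave 5911 and 5181 genes in WT and CRE BMDCs, 2905 genes and 4 members in CRE BMDMs (against 1233 and 2), 1659 in the BMDM interaction (against 462) and, within cell type and genotype, 1433 in the cell type interaction (against 381). The replicate block across groups gave 4 in BMDM controls (against 7). The block called Ptgs2 in WT BMDMs (2.32), Pla2g4a and Lta4h in CRE BMDMs (-0.84 and -0.44) and, across groups, Pla2g4a between BMDM labels under DMXAA (-0.93), and Ptgs2 between cell types lost its call (-2.82). BMDM numbers 1 and 2 are too few to show a pairing. With all libraries 0 genes and 0 members were called in the BMDM comparisons and the cell type interaction, and 1169 (8.51% of those tested) and 3 between cell types (against 3639 and 6). With the spread taken from WT libraries alone, BMDM genes called were 369 (WT), 90 (CRE) and 0 for the other comparisons, with 0 members. Without both BMDM WT libraries numbered 2, a choice made after seeing the data that leaves the spread to the CRE libraries, they were 7042 (6 members, WT), 6226 (5, CRE), 5947 (4, labels under DMXAA), 2512 (3, labels in control) and 5242 (4, interaction). In the same order, no low-value filter gave 5 members (WT), 2120 and 5, 3630, 700 and 2, and 1342 and 1. It also gave 2 genes each for the BMDC labels under DMXAA and the BMDC interaction, and 836 genes and 2 members (Ptgs2 and Alox5, not Lta4h) in the cell type interaction. DESeq2 gave 1866 (BMDM CRE), 110 (BMDM control), 1171 (BMDM interaction), 1 (BMDC interaction) and 732 (cell type interaction).

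Leaving out 1 library gave, in BMDMs, 3 to 5 members in WT, 273 to 351 genes and 0 members in CRE, 397 to 2496 genes and 0 to 2 members between labels under DMXAA, 2 to 246 genes and 0 to 1 members in control, and 0 to 1385 genes and 0 to 2 members in the interaction. In the cell type interaction it gave 138 to 526 genes and 0 to 1 members. No other call in BMDCs changed with the block than those of Alox5 and Alox5ap.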
